A study of Mus musculus with 6 samples.

Results

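The genes described here are the mouse zinc finger genes named Zfp700 to Zfp999, with or without a letter suffix, in adult liver. Of 135 such names in the deposited tables, 131 were listed once for every mouse and form the set of members. They are 131 of 47243 gene names used. The other 4 (Zfp735, Zfp979, Zfp984 and Zfp987) were listed at more than one locus and were left out. Gene expression was measured by RNA-Seq of unfixed liver in 6 house mice. The laboratory group comprised 3 male C57BL/6 mice, an inbred strain, with no transgene or treatment named. The wild group comprised 3 wild-caught mice, 1 male and 2 females, so sex differed partly along with origin. By the paper, wild mouse 3 was trapped at another site than wild mice 1 and 2. The wild mice were housed for months before sampling, whereas the laboratory mice were sacrificed on arrival. Age is given in weeks for the laboratory mice only, so housing and possibly age also differed along with origin. Levels are given as FPKM, fragments scaled to transcript length and library size, which allows genes to be set side by side. Read counts were not used here and the depth of each library is unknown, so the precision rests on the spread between 3 mice per group.

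Most of these genes encode proteins with tandem zinc fingers, short loops held by a zinc ion that read DNA bases. Many also carry a KRAB domain at the amino terminus, through which they recruit the co-repressor TRIM28, the histone methyltransferase SETDB1 and heterochromatin proteins. This machinery is best known for silencing retrotransposons in embryonic stem cells and early embryos. The genes lie in clusters of recent duplicates that differ between species and between mouse strains. A smaller number of members, such as Zfp768, Zfp787 and Zfp830, have no KRAB domain and are broadly expressed.

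The members were checked against the proteins translated from the GENCODE transcripts. A KRAB pattern was found in 97 of the 129 members with a translated transcript (75.2%), against 1.36% of 21845 genes in the annotation, and at least 1 zinc finger in 122. The members had a median of 11 fingers, with a maximum of 30 in Zfp729b. The pattern found no finger in 7 members. Loci on chromosomes 7 and 17 hold 26 and 23 of the members, and chromosomes 8 and 13 hold 14 each. Chaining members that lie within 1000000 bases of each other gave 8 runs of 6 or more, which together hold 71 members. The longest run has 13 members, all with a KRAB pattern, at chr17:21565816-22867309 (GRCm38).

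The region before the start of Zfp982 is shown because this gene gave the widest separation between laboratory and wild mice. Zfp981 and Zfp985, from the same run of 10 KRAB genes on chromosome 4 (chr4:145510759-147849126), are shown for comparison, together with Zfp787, one of the most abundant members. Each sequence is the 250 bases before the annotated start on the gene's own strand, 5′ to 3′, from RefSeq on GRCm38, with every CG dinucleotide in capitals. Where a gene had several starts, as Zfp982 with 3, the start with the most CG was taken.
Zfp982 (chr4:147442864-147443113, plus strand): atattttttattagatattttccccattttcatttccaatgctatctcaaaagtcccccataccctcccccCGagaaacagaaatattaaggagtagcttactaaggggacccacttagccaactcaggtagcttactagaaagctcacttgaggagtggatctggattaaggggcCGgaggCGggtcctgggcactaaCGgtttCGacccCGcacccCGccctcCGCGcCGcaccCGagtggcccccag
Zfp981 (chr4:146514670-146514919, plus strand): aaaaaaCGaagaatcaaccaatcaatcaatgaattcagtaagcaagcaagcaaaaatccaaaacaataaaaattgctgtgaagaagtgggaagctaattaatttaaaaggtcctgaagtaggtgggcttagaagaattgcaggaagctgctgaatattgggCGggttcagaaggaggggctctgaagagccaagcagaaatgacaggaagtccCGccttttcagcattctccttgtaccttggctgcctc
Zfp985 (chr4:147553027-147553276, plus strand): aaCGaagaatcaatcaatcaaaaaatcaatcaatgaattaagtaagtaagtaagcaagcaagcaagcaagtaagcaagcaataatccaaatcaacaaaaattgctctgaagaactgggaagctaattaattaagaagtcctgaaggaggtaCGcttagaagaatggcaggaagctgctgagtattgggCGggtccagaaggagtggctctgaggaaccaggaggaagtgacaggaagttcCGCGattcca
Zfp787 (chr7:6155966-6156215, minus strand): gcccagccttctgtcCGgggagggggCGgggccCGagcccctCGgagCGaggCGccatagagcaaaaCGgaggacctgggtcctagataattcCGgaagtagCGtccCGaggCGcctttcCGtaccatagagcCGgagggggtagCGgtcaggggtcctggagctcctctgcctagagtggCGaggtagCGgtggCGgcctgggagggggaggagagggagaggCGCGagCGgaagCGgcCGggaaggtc

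The capitals number 11 in Zfp982, 3 in Zfp981, 5 in Zfp985 and 22 in Zfp787. The sequences of Zfp981 and Zfp985 aligned over 179 bases, of which 87.2% were identical. No alignment of Zfp982 to either of these genes ran longer than 13 bases in this window, and the other starts of Zfp982 were not aligned. The proteins align along their length, with 67.2% of aligned residues identical between Zfp981 and Zfp982 and 72.3% between Zfp982 and Zfp985. Promoter sequences matched 114 members. At least 10 CG in these 250 bases were present in 45 of them (39.5%) and in 40.2% of 27018 genes. The median of mean FPKM over 6 mice was 0.969 in these 45 members and 0.694 in the 69 with fewer, a description of levels across genes only.

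Levels were low but broad. In no mouse did any member reach the high class of the authors' scale (zFPKM above 2), where zFPKM is log2 FPKM centred on the mode and divided by the SD of that mouse. Between 103 and 116 of the 131 members lay in the medium class, depending on the mouse. Across the 6 mice, 115 members were above 0 in every mouse, 14 were listed at 0 in 1 to 5 mice, and Zfp804a and Zfp819 were listed at 0 in all. By mean FPKM over 6 mice, 3 members exceeded 10, 47 lay between 1 and 10, 57 between 0.1 and 1, and 24 below 0.1. A gene passed the filter on low values when zFPKM was above -3 in at least 3 mice, as 122 members and 18628 genes in all did. Among the 122, 82 lay below the all-gene median of mean FPKM in laboratory mice and 91 in wild mice.

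**Figure D1:**
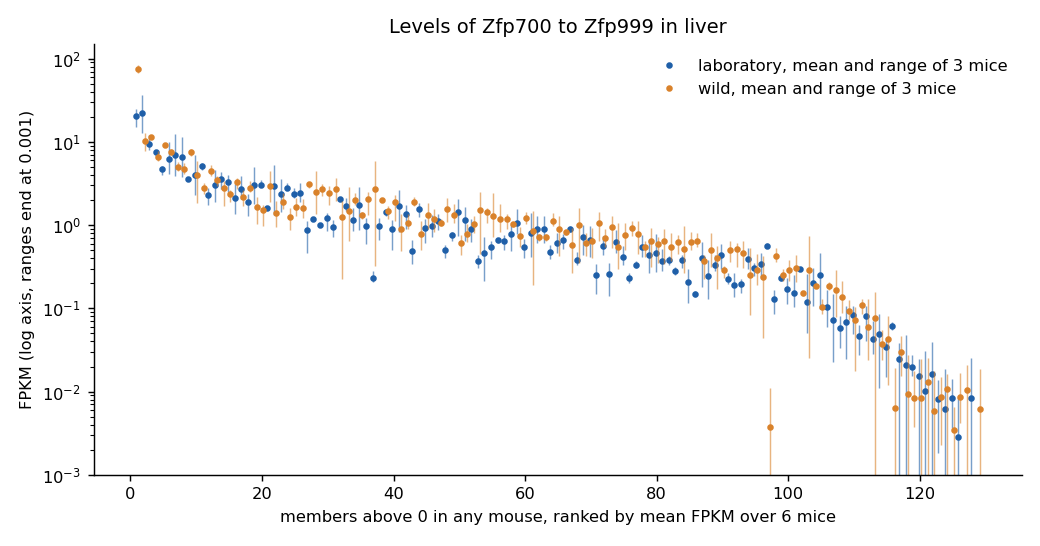
Mean FPKM (log axis) of every member above 0 in any mouse, ranked along the horizontal axis by the mean over 6 mice, with vertical lines from the lowest to the highest of 3 mice in laboratory (blue) and wild (orange) livers. Only 3 members exceed a mean of 10, and the single wild point far below its laboratory partner towards the right is Zfp982.

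The abundant end was led by Zfp706, whose short protein of 76 residues has 1 finger and no KRAB pattern and which is known from embryonic stem cells leaving self-renewal. The next was Zfp707, a KRAB gene on chromosome 15. Zfp825, another KRAB gene, had 7.90, 8.57 and 12.1 FPKM in laboratory and 12.04, 11.4 and 11.1 in wild mice, overlapping ranges. Zfp771, with 8 fingers and no KRAB pattern, had 6.55, 7.84 and 8.04 in laboratory and 7.71, 5.99 and 5.84 in wild mice, which also overlapped. Zfp787 had 3.98, 5.03 and 5.08 in laboratory mice. The wild mice had 9.001, 9.29 and 9.30, all above the laboratory mice on this scale. At the other end, the 5 lowest members that passed the filter were Zfp936, Zfp985, Zfp981, Zfp980 and Zfp853. None of them exceeded 0.0474 FPKM in any mouse, and 3 of the 5 are KRAB genes of the chromosome 4 run that also holds Zfp982. The 9 members that did not pass were Zfp711, Zfp804a, Zfp804b, Zfp819, Zfp831, Zfp957, Zfp978, Zfp990 and Zfp993. Zfp711, an X-linked gene involved in intellectual disability in humans, was above 0 only in laboratory mouse 3, at 0.0254. Zfp804a, at a risk locus for schizophrenia, and Zfp819, a KRAB gene of testis and pluripotent cells, were the genes listed at 0 throughout.

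Laboratory and wild livers were compared gene by gene on zFPKM with limma, with Benjamini-Hochberg adjustment over all 18628 genes. Of the 122 tested members, 3 (2.46%) passed an adjusted p of 0.05. Zfp982 and Zfp707 were lower in wild mice and Zfp706 was higher, but Zfp982 passed the filter only through the group in which it is high. Of all tested genes, 14.5% passed in either direction, 7.28% with wild mice higher and 7.17% with wild mice lower, and the difference between the members and this background was not tested. At an unadjusted p under 0.05 there were 10 members (8.20%), against 25.7% of all tested genes. The groups did not overlap on zFPKM in 21 of the 122 members (17.2%) and in 28.3% of all tested genes. The median difference, wild minus laboratory, was -0.11 over the members and -0.0049 over all tested genes, and 47 of 122 members had a positive difference. Leaving out wild mouse 1 turned the members' median to 0.06, with 0.14 over all tested genes. Without laboratory mouse 3 it was -0.25, with -0.14 over all tested genes.

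Zfp982, a KRAB gene with 7 fingers at chr4:147443114-147516064 that is known from embryonic stem cells, showed the widest separation. Its FPKM was 0.546, 0.546 and 0.606 in laboratory mice (0.566 ± 0.0349, SD, n = 3). In wild mice 1 to 3 it was 0.0111, 0 and 0. The groups lay far apart, and the male wild mouse lay with the 2 females. The bounds that Cufflinks gave were 0.379 to 0.713 in laboratory mouse 2 and 0 to 0.0556 in wild mouse 1. Mean zFPKM was -0.71 in laboratory mice and at the floor of -3 in wild mice. The gene passed the filter through the 3 laboratory mice alone, and the floor sets the wild value, so the difference of -2.29 is a description and its call gives no support. That call was lost with the floor at -20 (adjusted p = 0.179) and with no filter (adjusted p = 0.174). Without any 1 laboratory mouse the gene no longer passed the filter and was not tested. The locus overlaps those of Gm13161 and Vmn2r-ps19, so reads could have been shared with these names. Zfp979, Zfp984 and Zfp987, left out above, were listed on chromosome 4 and also on a second reference sequence. On chromosome 4, Zfp984 had 0.406 and 0.218 FPKM in laboratory mice 2 and 3 and 0.0326, 0.0748 and 0.0177 in wild mice. On the second sequence these were 0.0162, 0, 1.15, 0.211 and 0.641. Zfp979 and Zfp987 showed no such exchange. Whether reads of Zfp982 in wild mice went elsewhere was not tested. No other member of the chromosome 4 run passed the test.

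Zfp707, a KRAB gene with 7 fingers at chr15:75969123-75975868, was the second most abundant member. Its FPKM was 12.9, 17.5 and 36.2 in laboratory mice (22.2 ± 12.4, SD, n = 3), against 12.6, 10.4 and 7.73 in wild mice (10.3 ± 2.45). The groups did not overlap, but laboratory mouse 1 and wild mouse 1, both males, lay next to each other. On zFPKM the difference was -0.61 ± 0.17 (SE, adjusted p = 0.00437 in limma). The adjusted p ranged from 0.00382 to 0.29 over 21 alternatives, and the difference was negative in all of them. The call was lost in 6 of them. These were without wild mouse 3 (adjusted p = 0.0791), without the trend (0.117), with no filter (0.29) and with sex as a covariate. The others were log2(FPKM + 0.1) (adjusted p = 0.0661) and log2(FPKM + 1) (0.0836). With both females wild, the fit with sex set wild mouse 1 alone against the laboratory mice.

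Zfp706, at chr15:36997027-37007402, lies on the same chromosome as Zfp707 and moved the opposite way. Its FPKM was 20.5, 25.0 and 15.2 in laboratory mice (20.2 ± 4.9, SD, n = 3), against 84.5, 75.9 and 66.8 in wild mice (75.7 ± 8.87). Every wild mouse, the male included, lay above every laboratory mouse. The difference in zFPKM was 0.43 ± 0.14 (SE, adjusted p = 0.0226 in limma), with an adjusted p from 0.000317 to 0.45 over 21 alternatives, all with the same sign. The call was lost in 8 of them. These were without laboratory mouse 3 (adjusted p = 0.0871), wild mouse 2 (0.177) or wild mouse 3 (0.141), and with the floor at -5 (0.0801) or -20 (0.179). The rest were with no filter (adjusted p = 0.45), without the trend (0.309) and with sex as a covariate, which again set the wild male alone against the laboratory mice. The locus overlaps LOC115488529.

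Some marker sums differed between the groups along with these 3 genes. The sums are on FPKM, on which wild mice read higher for most genes, whereas the test beside them is on zFPKM. For 5 of the 7 hepatocyte markers (Ttr, Apoa1, Serpina1a, Cyp2e1 and Hnf4a; Alb and Cps1 were not among the names used), the summed FPKM was 27499 to 38187 in laboratory and 19625 to 21332 in wild mice. Of these 5, 3 passed the test as lower in wild mice and 1 as higher. The summed FPKM of the 5 stellate cell markers was 27.5 to 42.5 in laboratory and 71.4 to 128 in wild mice, with 1 marker passing as lower in wild mice. The 5 biliary markers summed to 29.7 to 64.6 and 12.2 to 27.6, with 1 passing as lower, and the 7 lymphocyte markers to 5.13 to 6.45 and 1.75 to 4.58, with 2 passing as lower. The 5 erythrocyte markers all passed as lower, with overlapping sums of 1340 to 5135 in laboratory and 724 to 1581 in wild mice. Sums of the 6 Kupffer cell markers and the 6 sinusoidal endothelial markers overlapped too, and none of their markers passed. No marker used was at 0 in all 6 mice. Their part in the members' differences was not tested, and in bulk liver fewer cells of a type and less RNA per cell cannot be told apart.

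**Figure D2:**
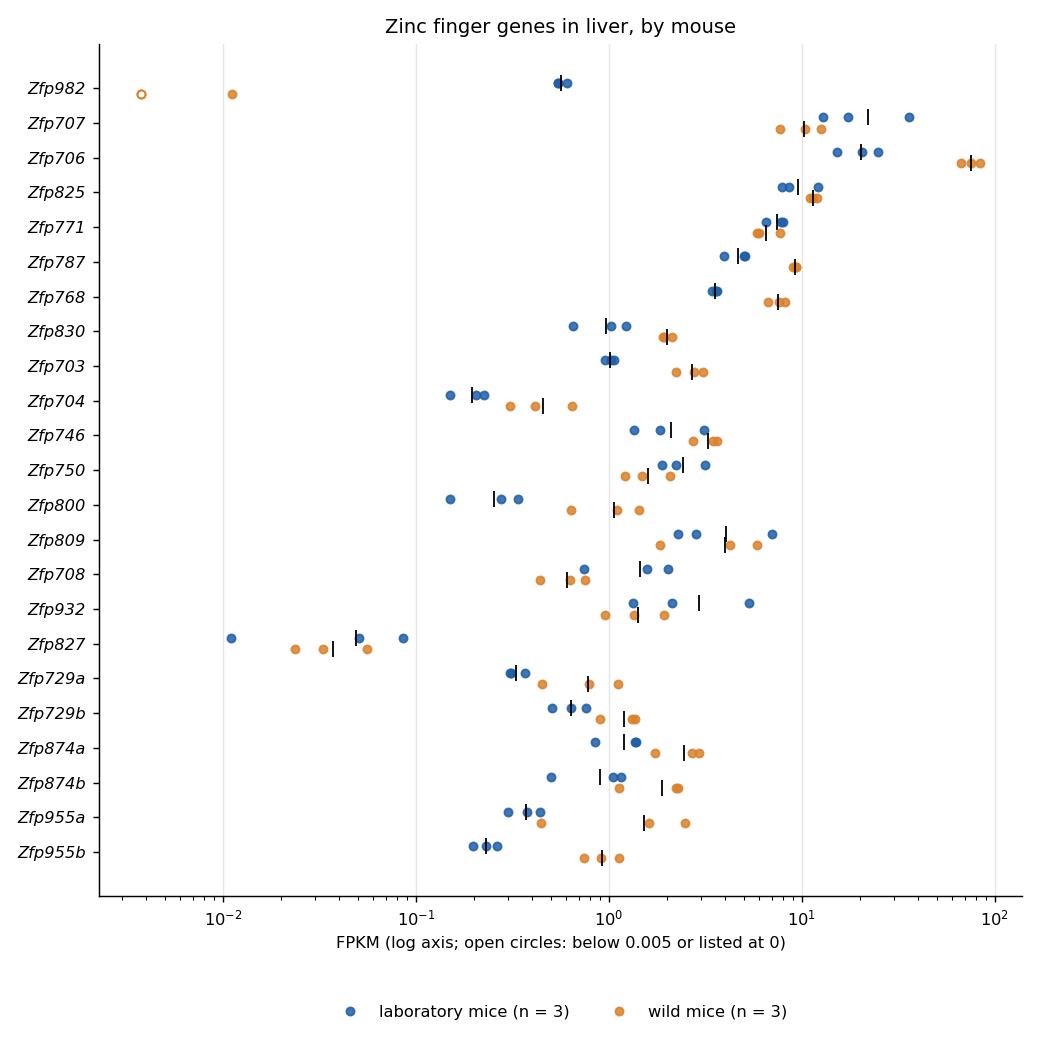
FPKM (log axis) of named members in each of 3 laboratory (blue) and 3 wild (orange) mice, with a black bar at each group mean and open circles for values listed at 0. Zfp982 is the one gene with open circles, and Zfp706 and Zfp707 are separated in opposite directions.

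The answer for the other members depended on the scale. zFPKM sets each mouse on its own mode and SD, and 2 mice stand apart in these, with an SD of 2.51 in laboratory mouse 3 and a mode of 2.51 in wild mouse 1. On FPKM itself the wild mice read higher for most genes: the median FPKM over tested genes was 0.83 to 1.18 in laboratory and 1.56 to 1.94 in wild mice, and the median difference in log2(FPKM + 0.1) was 0.47 over all tested genes. Over the members this median was 0.24. On FPKM the groups did not overlap in 47 of 122 members (38.5%), 38 with wild mice higher and 9 with laboratory mice higher. The background was 55.8% of all tested genes, 43.7% with wild mice higher and 12.1% with laboratory mice higher. In limma on log2(FPKM + 0.1), 27 members passed, against 46.2% of all tested genes, 22 of them higher in wild mice and 5 lower, against 38.0% and 8.19%. With each mouse centred on its own median on the same scale, 50 members passed, against 47.3% of all tested genes, 5 of them higher and 45 lower, against 18.6% and 28.6%. On zFPKM centred in the same way, 25 members passed, against 28.3% of all tested genes, 3 of them higher and 22 lower in wild mice, against 13.9% and 14.4%. After quantile normalization 33 members passed, against 39.1% of all tested genes, 7 of them higher and 26 lower, against 20.4% and 18.7%.

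**Figure D3:**
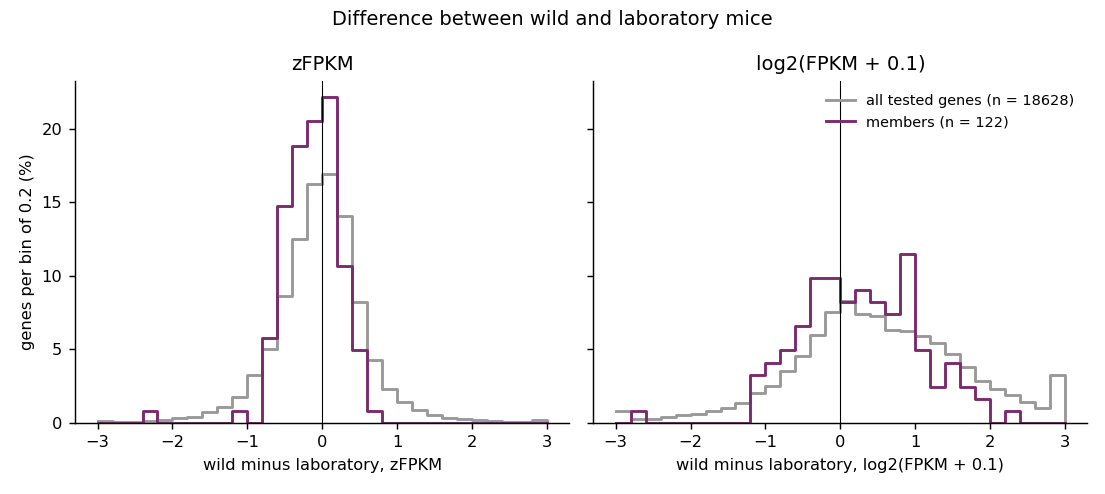
Share of genes (%) in bins of 0.2 of the difference, wild minus laboratory, for the 122 tested members (purple) and all 18628 tested genes (grey), on zFPKM (left) and log2(FPKM + 0.1) (right), with values beyond 3 in the end bins. The medians are -0.11 and -0.0049 on the left and 0.24 and 0.47 on the right.

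Some members passed in the same direction on both log2 scales. The 5 members that passed as higher with log2 values centred were Zfp706, Zfp790, Zfp800, Zfp954 and Zfp955b, and the 5 that passed as lower on uncentred log2(FPKM + 0.1) were Zfp710, Zfp783, Zfp944, Zfp972 and Zfp982. Both groups of names were chosen after their values were seen. Centring lowers the difference of every gene by the same amount, so their shared sign on the 2 scales was fixed in advance and gives no support. In Zfp944, a KRAB gene with 11 fingers in the longest run on chromosome 17, the FPKM was 2.62, 2.65 and 3.18 in laboratory mice, against 1.30, 1.61 and 0.876 in wild mice. In Zfp972, a KRAB gene of the chromosome 2 run in which the pattern found no finger, the values were 4.62, 5.25 and 5.62 in laboratory and 2.39, 2.72 and 3.21 in wild mice. In both genes the laboratory mice lay above every wild mouse. In Zfp783, annotated as a long non-coding RNA, the laboratory mice had 0.0557, 0.0682 and 0.0608 and no wild mouse exceeded 0.0191. These values are near 0. The bounds that Cufflinks gave overlapped, at 0.00896 to 0.127 in laboratory mouse 2 and 0 to 0.0521 in wild mouse 3. That locus overlaps Zfp956.

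Members known to act on retrotransposons were compared next, as far as a role is known. Zfp809, a KRAB protein that binds the primer binding site of murine leukaemia virus-type retroviruses, had 2.28, 2.82 and 7.05 FPKM in laboratory and 4.27, 1.84 and 5.85 in wild mice. The ranges overlapped, the highest value being in laboratory mouse 3. The difference in zFPKM was -0.25 ± 0.23 (SE, adjusted p = 0.554 in limma, 0.179 to 0.992 over 21 alternatives), and it was 0.01 on log2(FPKM + 0.1). Zfp708, a KRAB protein that binds a family of long terminal repeats, had 0.746, 1.58 and 2.04 in laboratory and 0.439, 0.756 and 0.631 in wild mice, overlapping narrowly at laboratory mouse 1. Its difference was -0.66 ± 0.34 (adjusted p = 0.196 in limma, 0.00386 to 0.535 over 21 alternatives, 4 of which made the call). Zfp932, a KRAB protein that binds endogenous retroviruses, had 1.34, 2.13 and 5.31 in laboratory and 1.35, 0.951 and 1.94 in wild mice, which overlapped. Its difference was -0.56 ± 0.28 (adjusted p = 0.179 in limma, 0.0155 to 0.45 over 21 alternatives, 5 of which made the call). The values of these 3 genes spanned 0.439 to 7.05 FPKM, whereas Zfp819, of the same kind, was listed at 0.

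Members with other known roles covered a similar range. Zfp768, which binds a repeat-derived sequence and has 10 fingers and no KRAB pattern, had 3.63, 3.61 and 3.45 FPKM in laboratory and 7.59, 6.71 and 8.20 in wild mice. The separation on FPKM was complete, but on zFPKM the difference was 0.13 ± 0.22 (adjusted p = 0.764 in limma, 0.00184 to 0.925 over 21 alternatives). Its sign turned without laboratory mouse 3 (-0.04) and with sex as a covariate (-0.07). Zfp703, a co-repressor studied in breast cancer, had 1.06, 1.03 and 0.961 in laboratory and 2.22, 3.10 and 2.77 in wild mice, again separate on FPKM. The difference in zFPKM was 0.25 ± 0.29 (adjusted p = 0.662 in limma, 0.00386 to 0.973 over 21 alternatives), and with sex as a covariate its sign turned (-0.09). Zfp704 had 0.151, 0.205 and 0.227 in laboratory and 0.306, 0.417 and 0.646 in wild mice, which did not overlap on FPKM. Zfp830, a pre-mRNA processing factor, had 0.656, 1.02 and 1.23 in laboratory and 1.94, 1.91 and 2.13 in wild mice, with the same order.

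Zfp800, with 6 fingers, was among the members that passed on both log2 scales. It had 0.150, 0.275 and 0.339 FPKM in laboratory and 0.635, 1.11 and 1.44 in wild mice. The difference in zFPKM was 0.47 ± 0.39 (adjusted p = 0.502 in limma, 0.0111 to 0.953 over 21 alternatives), and its sign turned with sex as a covariate (-0.05). Zfp750, which drives epidermal differentiation, had 1.90, 2.24 and 3.17 in laboratory and 2.07, 1.21 and 1.48 in wild mice, overlapping at wild mouse 1. Its difference was -0.46 ± 0.28 (adjusted p = 0.304 in limma, 0.0057 to 0.603 over 21 alternatives). The abundant Zfp771 had a difference of -0.31 ± 0.20 (adjusted p = 0.334 in limma, 0.00283 to 0.66 over 21 alternatives). Zfp746, also named PARIS and known as a repressor in neurons, had 1.35, 1.84 and 3.12 in laboratory and 2.73, 3.48 and 3.64 in wild mice, which overlapped. Zfp827, which acts at telomeres with the NuRD complex, did not exceed 0.0854 in any mouse.

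Paralogues with a shared number were measured side by side. Zfp955a and Zfp955b, with 95.4% identical aligned residues, lie in the second run on chromosome 17. Zfp955b had 0.232, 0.199 and 0.264 FPKM in laboratory and 0.740, 0.908 and 1.13 in wild mice, with every wild mouse higher. Its difference in zFPKM was 0.45 ± 0.40 (adjusted p = 0.524 in limma, 0.00262 to 0.949 over 21 alternatives). In Zfp955a the laboratory mice had 0.301, 0.438 and 0.377 and the wild mice 0.443, 1.62 and 2.50, so that the male wild mouse lay beside the laboratory males and the 2 females above them. Zfp874a had 0.8501, 1.38 and 1.38 in laboratory and 1.73, 2.94 and 2.69 in wild mice. Zfp874b, with 93.3% identical residues, had 0.5001, 1.05 and 1.16 against 1.13, 2.28 and 2.22. The wild values were higher in the first and overlapped the laboratory values in the second by 1 mouse. Zfp729a and Zfp729b share 87.1% of aligned residues and carry 27 and 30 fingers. Zfp729b had 0.508, 0.764 and 0.635 against 0.897, 1.37 and 1.32, and Zfp729a 0.313, 0.369 and 0.308 against 0.450, 0.792 and 1.11, neither pair of groups overlapping. Zfp804a and Zfp804b share only 34.2% and were at or near 0.

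Reads from such copies may not have been told apart. Zfp966 and Zfp967, a pair of KRAB genes in the chromosome 2 run, were listed with the same FPKM in every mouse, and their translated proteins of 485 residues were identical, so they give 1 measurement under 2 names. Both names are included in the counts and medians given here. The loci of 50 of the 131 members, and 45 of the 122 tested, overlapped another name in the tables. The values of these members are therefore uncertain to the extent that reads were shared.

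By run on the chromosome, the medians of the difference in zFPKM lay between -0.57 and 0.09. The chromosome 4 run had the lowest, -0.57 over 7 tested members, with 1 of them positive. It was also the least expressed run, with a median of mean FPKM of 0.0128 over its 10 members. Whether reads of this run went to the second reference sequence that also lists Zfp984 was not tested. The longest run on chromosome 17 had a median of -0.34 over 13 members, of which 3 were positive. The chromosome 6 and chromosome 2 runs had -0.37 and -0.34. The chromosome 13 run, which holds Zfp708 and both Zfp729 genes, had the highest median, 0.09 over 10 members with 7 positive. The 56 tested members outside these runs had a median of -0.09. Only Zfp982 passed the test among the members of the 8 runs. Neighbouring duplicates share sequence and are not replicates, so these medians are a description with no test.

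**Figure D4:**
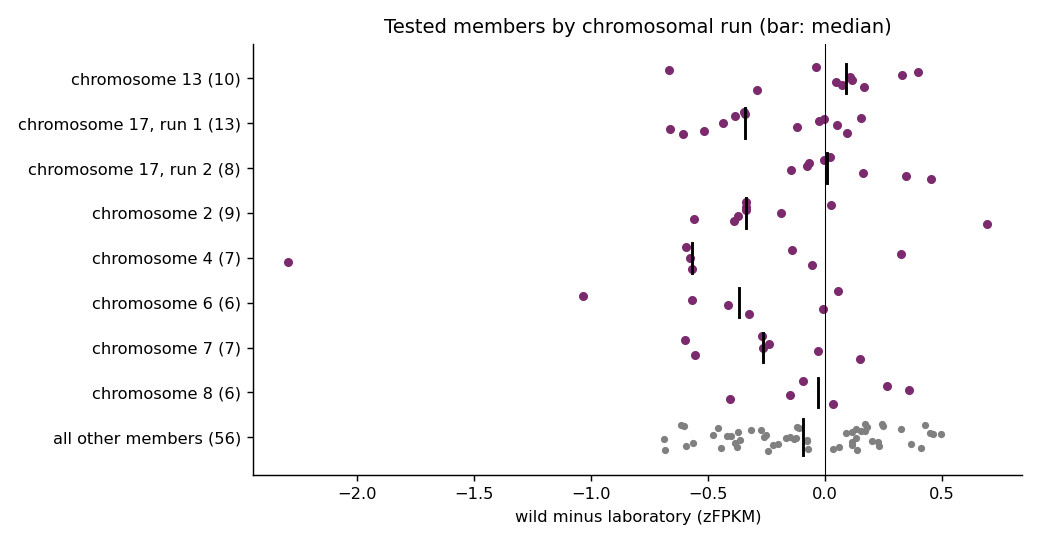
Difference in zFPKM, wild minus laboratory, of each tested member (points) in the 8 chromosomal runs of 6 or more members and in all other members, with a black bar at each median and the number of tested members in parentheses. The point at the far left is Zfp982, and the medians of the runs lie between -0.57 and 0.09.

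Members with and without a KRAB pattern gave these summaries. The 97 with the pattern had a median of mean FPKM of 0.740 and the 32 without one 0.954. Among those tested, 2 of 93 and 1 of 27 passed on zFPKM, against 14.5% of all tested genes, with median differences of -0.11 and -0.12. On FPKM, all wild mice were above all laboratory mice in 26 of 93 and in 11 of 27, against 43.7% of all tested genes. Members with 15 or more fingers had a median of mean FPKM of 0.595, those with 10 to 14 fingers 0.785, those with 4 to 9 fingers 0.913 and those with 3 or fewer 0.969. The pattern misses KRAB domains that the longest reading frames do not include, so some members counted as lacking it may hold one.

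Some of these values rested on single mice. In laboratory mouse 3 the FPKM was the highest of the laboratory group in 89 of 122 members (73.0%), against 49.6% of all tested genes. In Zfp707 it was 36.2, with 17.5 in the next laboratory mouse, and in Zfp932 it was 5.31, with 2.13 in the next. Among wild mice, mouse 3 held the highest value in 60 members (49.2%), against 42.8% of all tested genes. The median ratio of the highest to the lowest FPKM within a group was 1.86 over members and 1.64 over all tested genes in laboratory mice, counting genes above 0 in all 3. Among the wild mice it was 1.79 and 1.56. Wild mice differed widely from each other in 3 genes picked for this spread after their values were seen. Zfp931, a KRAB gene of the chromosome 2 run, had 0.325, 5.96 and 1.95 in wild mice and 0.205 to 0.279 in laboratory mice. Zfp960 had 0.227, 1.55 and 1.94 in wild mice and 2.00 to 2.13 in laboratory mice. Zfp872 had 0.747, 0.0250 and 0.0869 in wild mice and 0.0511 to 0.259 in laboratory mice. In each, the male wild mouse lay below or above both females, but in Zfp931 and Zfp872 the 2 females also differed from each other. Sex and individual cannot be told apart with 1 male.

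The partners through which KRAB proteins act were measured in the same livers. Of a list of 29 partner genes, 28 were listed once and 27 passed the filter, Atf7ip2 being listed at 0. On zFPKM only Trim24 passed, higher in wild mice, which is 1 of 27 against the background of 14.5%. Trim24, a relative of Trim28 that suppresses liver tumours in mice, had 0.864, 1.90 and 2.61 FPKM in laboratory and 4.14, 12.9 and 16.9 in wild mice. All wild mice lay above the laboratory mice, the male least. The difference in zFPKM was 0.62 ± 0.23 (SE, adjusted p = 0.0477 in limma, 0.00159 to 0.982 over 21 alternatives). The call was lost without laboratory mouse 1 (adjusted p = 0.18), laboratory mouse 2 (0.0912), laboratory mouse 3 (0.0784), wild mouse 2 (0.381) or wild mouse 3 (0.487). It was also lost with the floor at -5 (adjusted p = 0.133) or -20 (0.241), with no filter (0.45), with all 6 mice above -3 (0.0517), without the trend (0.28) and with the length trend removed (0.0620), and with sex as a covariate the difference was -0.01. Trim28, the central co-repressor, had 6.55, 5.58 and 8.08 in laboratory and 16.4, 18.2 and 20.1 in wild mice, separate on FPKM. Its difference in zFPKM was 0.25 ± 0.18 (adjusted p = 0.412 in limma, 0.000662 to 0.955 over 21 alternatives). Setdb1 had 2.51, 3.29 and 4.73 in laboratory and 3.04, 3.57 and 3.17 in wild mice, which overlapped. Its difference was -0.27 ± 0.24 (adjusted p = 0.523 in limma, 0.00982 to 0.875 over 21 alternatives).

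On FPKM the partners and the zinc finger genes gave different counts. All wild mice lay above all laboratory mice in 18 of 27 partners (66.7%), against 43.7% of all tested genes and 38 of 122 zinc finger members (31.1%), and in no partner was the order the opposite. In limma on log2(FPKM + 0.1), 15 of 27 partners passed, all higher in wild mice, against a background of 38.0% in that direction and 46.2% in either. With each mouse centred, 7 passed as higher and 5 as lower, against 18.6% and 28.6%. The heterochromatin protein gene Cbx5 had 1.09, 0.943 and 1.06 in laboratory and 4.35, 5.04 and 6.14 in wild mice, and its relative Cbx1 had 8.84, 9.75 and 14.2 against 10.3, 9.60 and 12.1. The wild mice were higher in the first, and the groups overlapped in the second. The difference between the partners and the zinc finger genes was not tested.

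**Figure D5:**
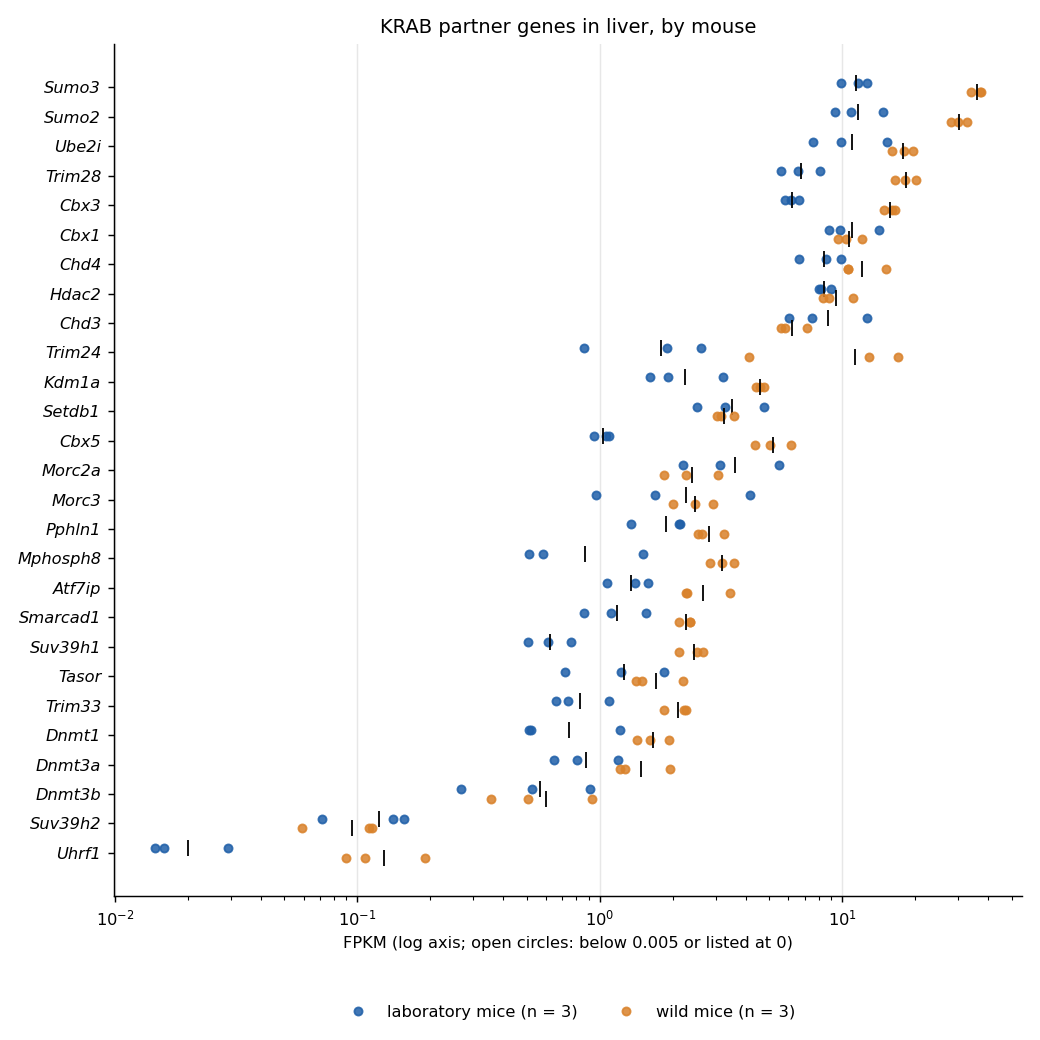
FPKM (log axis) of the 27 tested partner genes in each of 3 laboratory (blue) and 3 wild (orange) mice, ordered by mean, with a black bar at each group mean. In 18 genes every wild mouse lies above every laboratory mouse, and in none is the order the opposite.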

How the data were processed

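Liver RNA of 3 laboratory and 3 wild mice was sequenced from stranded mRNA libraries. The authors used kalign on a masked mouse genome and the Tuxedo pipeline to obtain the FPKM that they deposited for each gene. The zFPKM deposited beside it is a score, log2 FPKM rescaled within each mouse by the authors with the R package zFPKM. The submitters' processing notes name Picard and the build GRCm38.p6. That build is of the C57BL/6J strain, and the effect of sequence differences of wild mice on FPKM was not tested. Deposited starts count from 0, so 1 was added, and 122 of 131 positions then matched RefSeq on GRCm38.p6.

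Members and lists were chosen with earlier results of these data known. Of 47256 names listed once for every mouse, 13 with a failed estimate were left out. For laboratory mouse 1 the table has no such mark, so an FPKM of 0 is described as listed at 0. Values of zFPKM under -3 were set to -3, and the groups were compared with limma 3.58.1 (lmFit, eBayes with trend) in R 4.3.3. Nothing in the labels says how the mice were related. The p-values set each difference against the spread between these mice, which limma moderates towards that of genes of similar level. A 3 against 3 permutation test cannot give p under 0.1 and was not used. The fit was tested on simulated data with independent noise and a shift of 2 zFPKM in 200 genes. It recovered 83.5% of them, and 4.57% of the calls were false. That shift is larger than most differences given here. No shift shared by all genes of a mouse was simulated, so the test does not cover the dependence on scale.

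Named members were those that passed with no overlap of the groups (up to 10 in each direction), the 5 highest and the 5 lowest tested by mean FPKM, members with a known role, and letter-suffix pairs. Others are stated as chosen after their values were seen. Proteins were the longest reading frames of GENCODE M21 transcripts. A finger was counted as Cys-N2-Cys-N12-His-N3 to N5-His. Sequence identity came from global (protein) or local (DNA) alignment with Biopython 1.88, and tables from Python 3.11.15, numpy 2.4.6 and pandas 2.3.3. Alternatives were other floors, filters, scales and centrings, limma without trend, sex as a covariate, removal of a transcript length trend, and mice left out.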

Additional observations from a re-analysis of the deposited data

How the results depend on the processing

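Beside the 3 members called on zFPKM, where 14.5% of all tested genes were called, the count was 1 with the floor at -20 (6.42% of all tested genes), 0 with no filter on low values (0.0487%; an unadjusted p under 0.05 gave 10 members with the filter), 1 without the trend (4.27%), 6 with sex as a covariate (7.37%), 20 without laboratory mouse 3 and wild mouse 1 together (32.0%), 25 with zFPKM medians set to 0 (28.3%), 33 after quantile normalization (39.1%), 27 on log2(FPKM + 0.1) (46.2%), 30 on log2(FPKM + 1) (44.3%) and 50 on log2(FPKM + 0.1) with medians set to 0 (47.3%). On that last scale without the same 2 mice, a setting added once the data had been seen, it was 43 (45.9%). Leaving out 1 mouse gave 1 (wild mouse 3, 7.53% of all tested genes) to 5 (laboratory mouse 3, 16.6%) calls. In the same order, the 1 partner gene became 0, 0, 0, 0, 10, 6, 13, 15, 14 and 12, and then 13. It was 0 with the floor at -5, with all 6 mice above -3 and with the length trend removed, and 0 to 1 with 1 mouse left out. The members' median of -0.11 moved to -0.44 with sex as a covariate (all tested genes -0.27), 0.24 on log2(FPKM + 0.1) (0.47), -0.49 with its medians set to 0 (-0.27) and -0.49 there without the 2 mice (-0.33), and lay between -0.25 (-0.14) and 0.06 (0.14) with 1 mouse left out. Between 118 and 121 members passed the filter with 1 mouse left out. For the genes whose difference in zFPKM is given above, 303 of 310 differences under the alternatives kept their direction. The other named genes were not counted here. The exceptions were Zfp809 on log2(FPKM + 0.1) (0.0080) and log2(FPKM + 1) (0.0084), Zfp768 without laboratory mouse 3 (-0.043), and, with sex as a covariate, Zfp768 (-0.066), Zfp703 (-0.092), Zfp800 (-0.053) and Trim24 (-0.013). As both females were wild, the fit with sex as a covariate set wild mouse 1 alone against the 3 laboratory mice. Its differences are therefore those of 1 mouse and no estimate of an effect of sex. The cause of the other changes was not tested. No paired analysis was possible because the labels give no numbers that pair a laboratory with a wild mouse.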
